A study of Mus musculus with 12 samples.

Results

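The small leucine-rich proteoglycans of mouse scar were described here through 10 genes, *Dcn*, *Bgn*, *Lum*, *Fmod*, *Ogn*, *Omd*, *Prelp*, *Aspn*, *Podn* and *Kera*. They were chosen by symbol from the 35976 genes of the count files, and all 10 were among the 18853 genes that passed the filter on low counts. Scars came from male Tem1WT/WT mice and from male Tem1lacZ/lacZ mice, both aged 8 to 12 weeks. The Tem1lacZ/lacZ line carries the *lacZ* reporter in place of the only *Tem1* exon in every cell, and it had been crossed back to C57BL/6J. Every mouse received a 1.5-cm split wound in the back skin and, 6 days later, a plastic device on it. In the traction groups it was lengthened daily, 1 mm/day, until 8 mm had been reached, and in the sham groups its length was left as it was. The 4 groups were Tem1WT/WT sham (WTSH), Tem1WT/WT traction (WTTR), Tem1lacZ/lacZ sham (lacZSH) and Tem1lacZ/lacZ traction (lacZTR), each with 3 libraries from a part of the scar. Traction was applied to model hypertrophic scarring, and the genotypes were set side by side to ask what *Tem1* contributes to it.

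Small leucine-rich proteoglycans are secreted core proteins built from leucine-rich repeats that fold into a curved solenoid and bind collagen fibrils, where they set fibril spacing and diameter. Their best known members in skin are decorin (*Dcn*) and biglycan (*Bgn*), which carry chondroitin or dermatan sulfate chains, and lumican (*Lum*) and fibromodulin (*Fmod*), which carry keratan sulfate in many tissues. Decorin and biglycan also bind TGF-β, and soluble biglycan is a ligand of Toll-like receptors. Fibroblasts are the main source of these proteins in the dermis.

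Several members lie next to each other in the genome. By GENCODE vM21 (GRCm38), *Dcn* (chr10:97479609-97518143), *Lum* (chr10:97565128-97572703) and *Kera* (chr10:97606879-97613692) follow one another on the plus strand of chromosome 10. *Aspn* (chr13:49544443-49567565), *Omd* (chr13:49582462-49592822) and *Ogn* (chr13:49608046-49624501) do so on the plus strand of chromosome 13. *Fmod* (chr1:134037254-134048277, plus strand) and *Prelp* (chr1:133910304-133921414, minus strand) share a region of chromosome 1. *Bgn* is at chrX:73483602-73495933 on the plus strand and *Podn* at chr4:108014791-108096445 on the minus strand. The chromosome 13 genes lie inside the span of *Cenpp*, which is read from the other strand and shares exon sequence with *Aspn*, and an exon of *Prelp* overlaps the antisense gene *Gm15851*. The strand setting of the counting is not given in the sources used here, so reads of these overlapping exons may belong to either gene. In CPM, the count scaled to library size with TMM normalization, *Cenpp* was at 1.93 to 7.07 CPM over the 12 libraries, and *Aspn* at 131 to 1359 CPM.

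The chromosome 13 neighbours *Aspn*, *Omd* and *Ogn* moved together over the 12 libraries, with a Pearson r of log2 CPM of 0.89 to 0.94. Without WTTR replicate 1 this r was 0.52 to 0.61. The sequences before their start sites, and before those of *Bgn* and *Fmod*, the members that passed the test for traction, are shown from RefSeq (GRCm38.p6, plus strand, 250 bases up to the start site, 5′ to 3′). They are chrX:73483351-73483600 for *Bgn*, chr1:134037004-134037253 for *Fmod*, chr13:49544193-49544442 for *Aspn*, chr13:49582212-49582461 for *Omd* and chr13:49607765-49608014 for *Ogn*. Capitals mark a match on either strand to the letters TGANTCA (AP-1), GGAATG (TEAD), TGTGGT (RUNX), CAGACA (SMAD), GGGCGG (Sp1) or TATAAA (the TATA box).
Bgn: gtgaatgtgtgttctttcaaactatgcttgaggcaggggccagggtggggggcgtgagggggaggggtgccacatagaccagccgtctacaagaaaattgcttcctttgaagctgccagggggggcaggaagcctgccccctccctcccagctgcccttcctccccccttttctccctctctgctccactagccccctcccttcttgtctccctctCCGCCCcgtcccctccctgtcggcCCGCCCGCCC
Fmod: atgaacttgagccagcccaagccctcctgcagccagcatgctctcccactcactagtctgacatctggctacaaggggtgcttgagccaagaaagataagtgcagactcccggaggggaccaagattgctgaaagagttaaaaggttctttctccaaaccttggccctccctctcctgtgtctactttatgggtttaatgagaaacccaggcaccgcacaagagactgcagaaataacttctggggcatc
Aspn: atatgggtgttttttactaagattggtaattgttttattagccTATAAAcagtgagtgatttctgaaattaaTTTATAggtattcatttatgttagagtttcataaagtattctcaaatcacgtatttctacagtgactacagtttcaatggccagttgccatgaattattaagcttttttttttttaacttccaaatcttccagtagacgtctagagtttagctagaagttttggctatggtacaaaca
Omd: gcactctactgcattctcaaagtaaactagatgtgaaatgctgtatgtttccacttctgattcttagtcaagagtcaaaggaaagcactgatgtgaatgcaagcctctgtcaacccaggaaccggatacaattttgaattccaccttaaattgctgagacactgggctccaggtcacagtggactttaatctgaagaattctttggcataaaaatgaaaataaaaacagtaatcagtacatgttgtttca
Ogn: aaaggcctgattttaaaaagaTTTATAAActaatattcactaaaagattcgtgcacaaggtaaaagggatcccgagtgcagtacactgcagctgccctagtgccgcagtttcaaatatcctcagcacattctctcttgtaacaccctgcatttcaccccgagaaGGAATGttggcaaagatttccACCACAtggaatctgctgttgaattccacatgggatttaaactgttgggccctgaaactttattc
Those of *Fmod* and *Omd* held no match. The *Bgn* window held 3 Sp1 matches on the other strand, beginning 34, 10 and 6 bases before the start, of which the last 2 overlap. *Ogn* had TEAD letters 86 and RUNX letters 65 bases before its start, and *Ogn* and *Aspn* had TATA letters more than 100 bases from theirs. GC content ran from 64.4% in the *Bgn* window to 30% in that of *Aspn*. RefSeq gave a window for 8 of the 10 members, not for *Dcn* and *Lum*. Of these 8, 2 held Sp1 letters (*Bgn* and *Podn*), 2 TATA letters, 1 TEAD letters, 1 RUNX letters and 0 AP-1 or SMAD letters. Among 32851 RefSeq promoters the shares with a match in the same 250 bases were 32.7% for Sp1, 12.4% for TATA, 12.6% for TEAD, 14% for RUNX, 6.75% for AP-1 and 17.1% for SMAD. A match describes the letters of a window and not a bound site.

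The libraries held between 41536788 and 64644293 counts. *Cd248*, the symbol of *Tem1* in the files, had 3883 to 16413 counts in the Tem1WT/WT libraries and 0 to 13 in the Tem1lacZ/lacZ libraries, so the libraries matched their genotype labels. Fibroblast markers (8 genes, among them *Col1a2*, *Pdgfra* and *Dpt*) were detected in every library. Their summed level was 6148 to 7939 CPM in WTSH, 9192 to 27174 in WTTR, 3733 to 6071 in lacZSH and 4224 to 11618 in lacZTR. Most of it was *Col1a2*, with means of 5521, 15426, 3201 and 7365 CPM in the same order. The sum therefore mainly follows this collagen gene, and *Dpt* went the other way, with means of 602, 463, 801 and 539 CPM.

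A pair of traction libraries stood apart. WTTR replicate 1 had 6722 CPM summed over 6 neutrophil markers, against 586 and 280 in the other 2 WTTR libraries, 31.6 to 88.4 in WTSH, 144 to 184 in lacZSH and 236 to 517 in lacZTR. It was also the lowest of the 12 libraries for 5 members, *Lum*, *Ogn*, *Omd*, *Aspn* and *Kera*. *Omd* was 23.1-fold, *Kera* 11.9-fold, *Ogn* 8.31-fold, *Aspn* 5.58-fold and *Lum* 2.23-fold lower in it than the mean of the other 2 WTTR libraries. *Dcn* was at 2772 CPM in it against a mean of 2749, and *Bgn* at 2439 against 2938. The main results of traction in Tem1WT/WT mice are therefore given with and without it. In lacZTR, replicate 1 had 39984 CPM summed over 5 keratinocyte markers, against 8956 to 19652 in the other 11 libraries, and 4224 CPM over the fibroblast markers against 11618 and 10128 in its group. No pair of libraries within a group was a copy. In WTSH, replicate 1 had the highest skeletal muscle signal, 11942 CPM summed over 6 markers against 3345 and 1186, and it was the lowest of its group for *Bgn*, *Lum*, *Aspn* and *Kera*. The part of these other cell types in the results was not tested.

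Decorin was the most abundant member per length. Its mean over the 12 libraries was 1644 CPM per kb of the principal transcript, followed by *Bgn* at 664, *Lum* at 558, *Aspn* at 375, *Ogn* at 196, *Prelp* at 47.6, *Omd* at 18.4, *Podn* at 10.1, *Fmod* at 8.06 and *Kera* at 5.12 CPM per kb. The members took between 0.557% and 0.877% of a library's counts together, with no split between the groups. *Dcn* was above *Bgn* in 12 of 12 libraries and *Lum* above *Aspn* in 12 of 12, whereas *Bgn* was above *Lum* in only 7 of 12. At the low end *Omd* was above *Podn* in 9, *Podn* above *Fmod* in 8 and *Fmod* above *Kera* in 8 of 12, so these neighbours were not separated beyond their spread. With all exons merged in place of the principal transcript, which takes *Dcn* from 1758 to 5838 bp, *Lum* came first at 558 CPM per kb and *Dcn* followed at 495, *Aspn* at 371 and *Bgn* at 263, so the order of the top 4 depends on the length used.

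The members differed in how steady they were. *Dcn* spanned 1.64-fold between its lowest and highest library, the narrowest range of the 10, and *Lum* 2.73-fold. The widest ranges were those of *Omd* (53.9-fold), *Ogn* (21.4-fold), *Kera* (19.6-fold) and *Aspn* (10.4-fold), and all 4 had their lowest value in WTTR replicate 1. *Bgn*, with a range of 4.08-fold, was lowest in a WTSH and highest in a WTTR library.

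**Figure D1:**
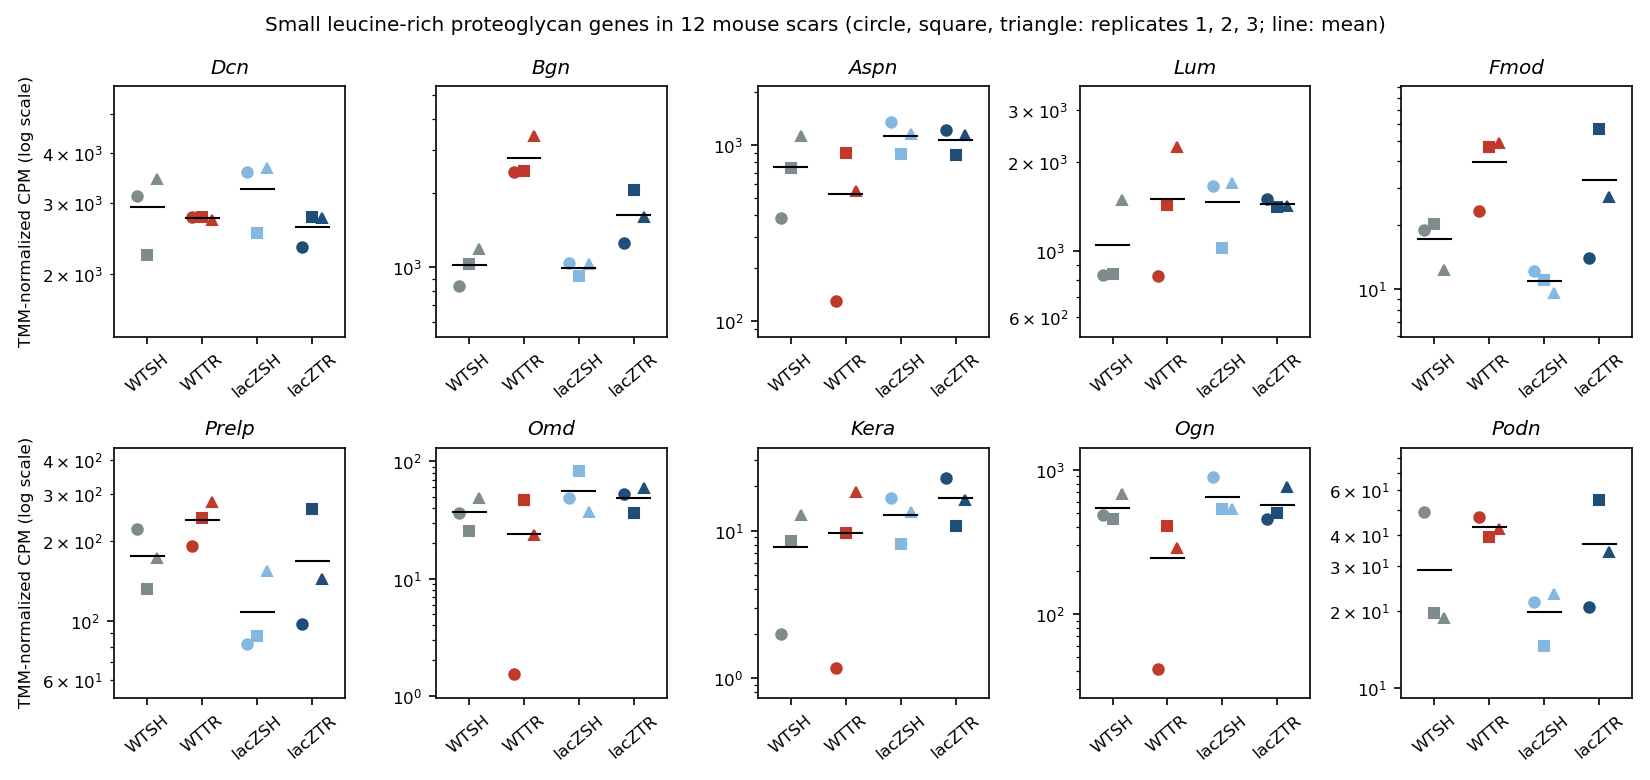
Levels of the 10 proteoglycan genes in each library, in TMM-normalized CPM on a log axis with its own range in each panel. Points are libraries (circle, square and triangle for replicates 1, 2 and 3), short lines are group means of 3 libraries, and the groups are WTSH, WTTR, lacZSH and lacZTR. *Dcn* stays within 1.64-fold over all libraries, *Bgn* is above both sham groups in all traction libraries, and WTTR replicate 1 (circle) is the lowest point for *Aspn*, *Lum*, *Omd*, *Kera* and *Ogn*.

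Traction in Tem1WT/WT mice raised 1 member, *Bgn*, and changed no other member past the threshold. At an adjusted p under 0.05 (edgeR's quasi-likelihood test, Benjamini-Hochberg over all genes tested), 9.15% of all genes tested were called in this comparison, 5.61% as higher and 3.54% as lower, against 1 of 10 members. The median log2 fold change of the 10 members was 0.38, that of all genes -0.0094. A change in a whole scar can come from the number of cells of a type or from the RNA each cell holds, and the counts cannot tell these apart.

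Biglycan is the class I proteoglycan closest to decorin. It was at 836, 1029 and 1186 CPM in WTSH (replicates 1 to 3) and at 2439, 2470 and 3407 CPM in WTTR. In lacZSH it was at 1036, 922 and 1033 CPM and in lacZTR at 1249, 2058 and 1601 CPM. All 6 traction libraries were above all 6 sham libraries, which held for 0.859% of all genes tested and for no other member. In Tem1WT/WT mice the increase was 2.73-fold (95% interval 1.90 to 3.92), a log2 fold change of 1.45 (SE 0.24) with an adjusted p of 0.0252. The fibroblast marker sum was also higher in every WTTR than in every WTSH library. *Col1a2* made up most of it, with a mean of 5521 CPM in WTSH and 15426 in WTTR. Of the 8 marker genes, 5 had a positive and 3 a negative log2 fold change. The part of the fibroblast markers in the result was not tested. The *Bgn* change was 1.51 with an adjusted p of 0.0384 without WTTR replicate 1. The call was lost without WTSH replicate 1 (log2 fold change 1.32, adjusted p = 0.114), without WTSH replicate 2 (1.47, adjusted p = 0.0869) and when only the 6 Tem1WT/WT libraries were fitted (1.44, adjusted p = 0.0747), settings that called 0 of all genes, with 4229, 4847 and 4876 genes at an unadjusted p under 0.05.

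In Tem1lacZ/lacZ mice *Bgn* was 1.64-fold higher with traction (95% interval 1.15 to 2.35). The adjusted p was 0.598 in edgeR, which called 0% of all genes in this comparison, whereas DESeq2's Wald test called 28 genes and limma-voom 377, *Bgn* (adjusted p = 0.047) and *Fmod* (adjusted p = 0.0492) among the latter. Without lacZTR replicate 1 edgeR called 73 genes, with *Bgn* at a log2 fold change of 0.92 (adjusted p = 0.0766) and *Fmod* at 1.98 (adjusted p = 0.0517). At an unadjusted p under 0.05 edgeR held 8.12% of all genes and 2 of 10 members, *Bgn* and *Fmod*. Both had no overlap between the groups, which held in that direction for 6.77% of all genes. The difference between the genotypes in the *Bgn* response was -0.73 on the log2 scale (95% interval -1.46 to -0.0061, unadjusted p = 0.0484, adjusted p = 0.555, edgeR), so an unequal response was not established. Averaged over both genotypes, traction raised *Bgn* by 1.08 on the log2 scale (SE 0.17), which is 2.11-fold (95% interval 1.64 to 2.73), with an adjusted p of 0.0203. This adjusted p was above 0.05 without WTSH replicate 1 (0.0522), without lacZSH replicate 2 (0.067) and without lacZTR replicate 2 (0.0576), whereas the log2 fold change stayed between 0.99 and 1.18 in all 20 alternatives.

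Fibromodulin, a class II member that binds collagen and guides fibril growth, moved the same way at a lower level. *Fmod* was at 19.1, 20.3 and 12.3 CPM in WTSH and at 23.3, 46.9 and 48.8 CPM in WTTR. It was at 12.2, 11.1 and 9.57 CPM in lacZSH and at 14.0, 56.7 and 27.3 CPM in lacZTR. The traction and sham libraries did not overlap within either genotype, and lacZTR replicate 1 was closest to the sham libraries. The log2 fold change was 1.2 (SE 0.44, adjusted p = 0.0958) in Tem1WT/WT mice and 1.58 (SE 0.45, adjusted p = 0.598) in Tem1lacZ/lacZ mice. The first was 1.45 (adjusted p = 0.0814) without WTTR replicate 1, and the second 0.92 without lacZTR replicate 2, the library with the highest *Fmod* level. Averaged over both genotypes, *Fmod* rose 2.62-fold (95% interval 1.62 to 4.24), a log2 fold change of 1.39 (SE 0.32) with an adjusted p of 0.0304. That average called 9.73% of all genes, 6.5% as higher, against 2 of 10 members, *Bgn* and *Fmod*. The *Fmod* call was the less stable. It was lost when any of 8 libraries was left out, the 3 WTSH libraries, lacZSH replicates 2 and 3, WTTR replicate 3 and lacZTR replicates 2 and 3, with adjusted p between 0.0515 and 0.0807.

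Decorin itself was nearly level. *Dcn* was at 3118, 2233 and 3441 CPM in WTSH and 2772, 2772 and 2725 CPM in WTTR. It was at 3581, 2525 and 3661 CPM in lacZSH and 2329, 2767 and 2758 CPM in lacZTR. The WTTR libraries lay close together, with an SD of 27.1 CPM around a mean of 2756, and all 4 groups overlapped. The log2 fold change with traction was -0.088 in Tem1WT/WT mice (95% interval -0.58 to 0.40) and -0.31 in Tem1lacZ/lacZ mice (95% interval -0.81 to 0.18). For the average of both it was -0.20 (95% interval -0.55 to 0.15), so an increase of the size seen for *Bgn* lies outside the interval.

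Lumican regulates the diameter of collagen fibrils. *Lum* was at 832, 841 and 1489 CPM in WTSH, 826, 1433 and 2252 CPM in WTTR, 1654, 1029 and 1704 CPM in lacZSH and 1505, 1407 and 1419 CPM in lacZTR. The groups overlapped, and the log2 fold change with traction was 0.51 (95% interval -0.28 to 1.30) in Tem1WT/WT and -0.019 (95% interval -0.81 to 0.77) in Tem1lacZ/lacZ mice. Without WTTR replicate 1 the first of these was 0.78 (adjusted p = 0.152).

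The chromosome 13 genes had their lowest values of the 12 libraries in WTTR replicate 1. *Ogn*, whose product osteoglycin (mimecan) is a class III member, was at 483, 454 and 681 CPM in WTSH and at 41.7, 409 and 285 CPM in WTTR, where every library was below every WTSH library. It was at 893, 531 and 532 CPM in lacZSH and 453, 506 and 755 CPM in lacZTR, which overlapped. Groups that did not overlap were found for 17.7% (higher) and 18% (lower) of all genes in the Tem1WT/WT comparison, against 2 (*Bgn* and *Fmod*) and 1 (*Ogn*) of 10 members. The log2 fold change of *Ogn* was -1.14 (SE 0.60, adjusted p = 0.219), and it was -0.65 (adjusted p = 0.234) without WTTR replicate 1.

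Osteomodulin (*Omd*), first known from bone, was at 36.0, 25.3 and 48.9 CPM in WTSH, 1.52, 46.7 and 23.6 CPM in WTTR, 48.3, 82.1 and 37.0 CPM in lacZSH and 52.4, 36.0 and 58.8 CPM in lacZTR. Asporin, a class I member without a glycosaminoglycan chain that binds TGF-β, was read from *Aspn* at 386, 741 and 1129 CPM in WTSH, 131, 909 and 553 CPM in WTTR, 1359, 889 and 1157 CPM in lacZSH and 1217, 877 and 1141 CPM in lacZTR. For both genes WTTR replicate 1 was the lowest library by a wide margin. Of the other WTTR libraries, both lay inside the WTSH range for *Aspn*, whereas for *Omd* replicate 3 (23.6 CPM) was also below the lowest WTSH library (25.3 CPM). Their log2 fold changes with traction in Tem1WT/WT mice were -0.62 and -0.50 with it and -0.076 and -0.055 without it.

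Keratocan (*Kera*), a keratan sulfate proteoglycan best known from the cornea, was the scarcest member at 2.00, 8.50 and 12.7 CPM in WTSH, 1.17, 9.58 and 18.2 CPM in WTTR, 16.6, 8.04 and 13.4 CPM in lacZSH and 22.9, 10.8 and 16.1 CPM in lacZTR. Its log2 fold change with traction had 95% intervals more than 3 log2 units wide in each genotype. They ran from -1.45 to 2.08 in Tem1WT/WT and from -1.37 to 2.14 in Tem1lacZ/lacZ mice, so a change within these limits could not be told from 0.

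*Prelp*, whose product has a heparin-binding end and links matrix to basement membrane, was at 222, 132 and 172 CPM in WTSH, 192, 244 and 279 CPM in WTTR, 82.2, 87.7 and 154 CPM in lacZSH and 97.1, 262 and 143 CPM in lacZTR. Podocan, the class V member, was read from *Podn* at 49.0, 19.6 and 18.9 CPM in WTSH, 46.8, 39.2 and 42.0 CPM in WTTR, 21.7, 14.6 and 23.3 CPM in lacZSH and 20.8, 54.8 and 34.3 CPM in lacZTR. Traction and sham overlapped in both genotypes for both genes, through WTSH replicate 1 and lacZTR replicate 1 in the case of *Podn*. Averaged over the genotypes, the log2 fold change was 0.54 (SE 0.26, adjusted p = 0.182) for *Prelp* and 0.72 (SE 0.29, adjusted p = 0.123) for *Podn*.

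**Figure D2:**
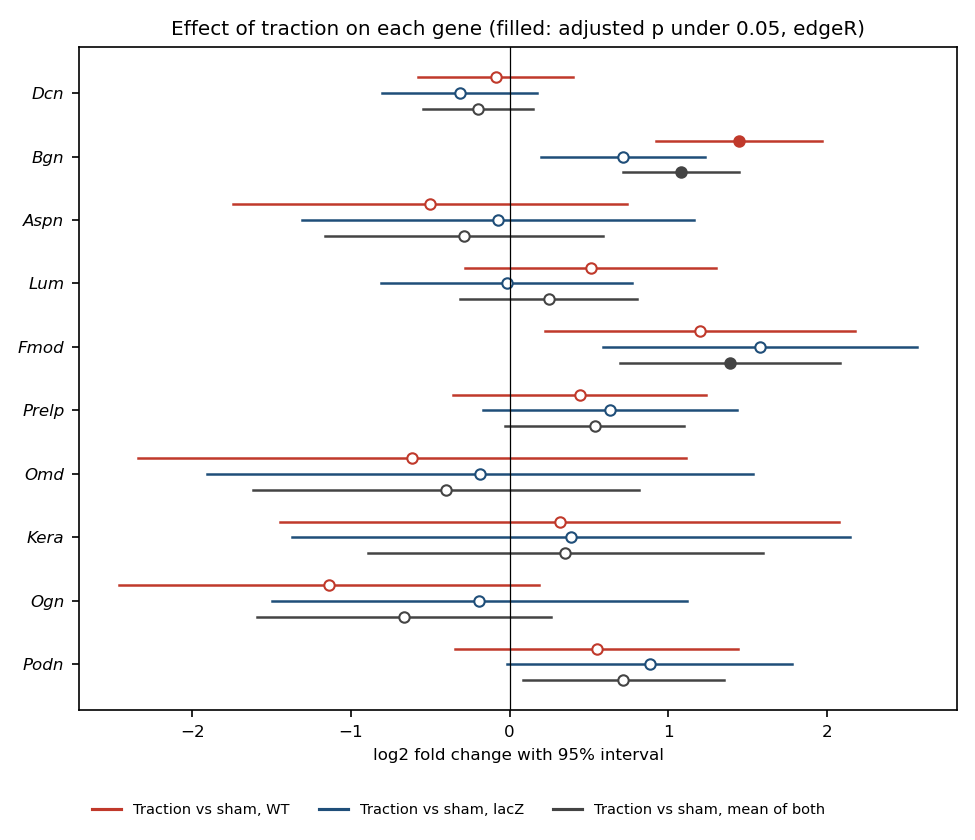
Log2 fold change of each proteoglycan gene with traction (horizontal axis, 95% interval) in Tem1WT/WT mice, in Tem1lacZ/lacZ mice and averaged over both. Filled points have an adjusted p under 0.05 in edgeR: *Bgn* at 1.45 in Tem1WT/WT mice and, for the average, *Bgn* at 1.08 and *Fmod* at 1.39. The intervals of *Omd*, *Kera*, *Ogn* and *Aspn* are the widest.

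Between the genotypes edgeR called no member. DESeq2's Wald test called 1 of 10 members, *Bgn*, under traction, beside 2334 of 18853 genes. Under sham conditions 0 of 10 members passed an adjusted p under 0.05, where 0.0106% of all genes did, and 0 passed an unadjusted p under 0.05, where 11.7% did. *Fmod* was lower in every lacZSH than in every WTSH library, with a log2 fold change of -0.66 (adjusted p = 0.557), in a comparison where 13.8% of all genes did not overlap in that direction. *Prelp* had the lowest adjusted p, 0.461, at a log2 fold change of -0.70.

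Under traction 0 of 10 members were called against 0.106% of all genes, and *Bgn* alone had an unadjusted p under 0.05, against 26.1% of all genes. Every lacZTR library was below every WTTR library for *Bgn*, a log2 fold change of -0.76 (95% interval -1.28 to -0.25, unadjusted p = 0.00772, adjusted p = 0.102). DESeq2's Wald test gave it an adjusted p of 0.0159. Every lacZTR library was above every WTTR library for *Ogn*, at 1.22 (adjusted p = 0.224), and *Aspn* and *Omd* were at 1.02 and 1.03. Without WTTR replicate 1 these were -0.81 for *Bgn*, 0.75 for *Ogn*, 0.59 for *Aspn* and 0.51 for *Omd*, with adjusted p of 0.184 or more. Groups that did not overlap were found for 26.6% of all genes and for 2 of 10 members here. The Tem1WT/WT traction libraries enter this comparison and the one of traction in Tem1WT/WT mice, so the 2 are not independent.

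Averaged over sham and traction, the genotypes differed by -0.39 (log2, adjusted p = 0.148) for *Bgn* and by -0.60 (adjusted p = 0.154) for *Prelp*, and 0 of 10 members were called against 0.053% of all genes. The interaction called 0 of 10 members and 0% of all genes. *Bgn* was the 1 member with an unadjusted p under 0.05 in it, against 8.91% of all genes.

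Ratios within a library do not depend on library scaling. The log2 ratio of *Bgn* to *Dcn* in CPM was -1.52 ± 0.39 (SD, n = 3) in WTSH, -0.0096 ± 0.29 in WTTR, -1.69 ± 0.21 in lacZSH and -0.70 ± 0.25 in lacZTR. Every traction library was above every sham library of both genotypes, and every WTTR library was above every lacZTR library. The mean traction effect was 1.25, or 2.37-fold (exact permutation test within genotype, two-sided, p = 0.005, the smallest that 400 splits can give, adjusted p = 0.05 over 20 tests of 4 ratios, which does not pass under 0.05). Within a genotype 3 libraries against 3 cannot give p below 0.1 in this exact test, which was the value in Tem1WT/WT (difference 1.51), in Tem1lacZ/lacZ (0.99) and for lacZTR against WTTR (-0.69). For lacZSH against WTSH the difference was -0.17 (exact permutation p = 0.7). Of the summed level per kb of the 10 members, *Bgn* made up 11.9% to 16.4% in WTSH, 26.5% to 32.8% in WTTR, 10.4% to 13.1% in lacZSH and 16.0% to 23.0% in lacZTR, and *Dcn* 35.6% to 60.9% over all libraries.

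Set against type I collagen, the main fibril partner of these proteins, *Dcn* and *Lum* had lower mean ratios in the traction groups. The log2 ratio of *Dcn* to *Col1a1* was -0.62 ± 0.45 (SD, n = 3) in WTSH and -2.23 ± 0.83 in WTTR, 0.56 ± 0.28 in lacZSH and -1.06 ± 0.75 in lacZTR, with a mean traction effect of -1.62 (exact permutation p = 0.005, adjusted p = 0.05). For *Lum* to *Col1a1* it was -2.12 ± 0.31, -3.23 ± 0.14, -0.61 ± 0.26 and -1.92 ± 0.94 in the same order, with a mean effect of -1.21 (exact permutation p = 0.01, adjusted p = 0.0667). *Col1a1* itself rose by 1.56 on the log2 scale (SE 0.35, adjusted p = 0.0295, edgeR) averaged over both genotypes, whereas the intervals of *Dcn* and *Lum* include 0. Sham and traction libraries did not overlap within either genotype for *Dcn* to *Col1a1*, and they overlapped in Tem1lacZ/lacZ mice for *Lum* to *Col1a1*. The ratio of *Fmod* to *Lum* had a mean traction effect of 1.02 (exact permutation p = 0.035, adjusted p = 0.154) and overlapped between sham and traction in both genotypes.

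**Figure D3:**
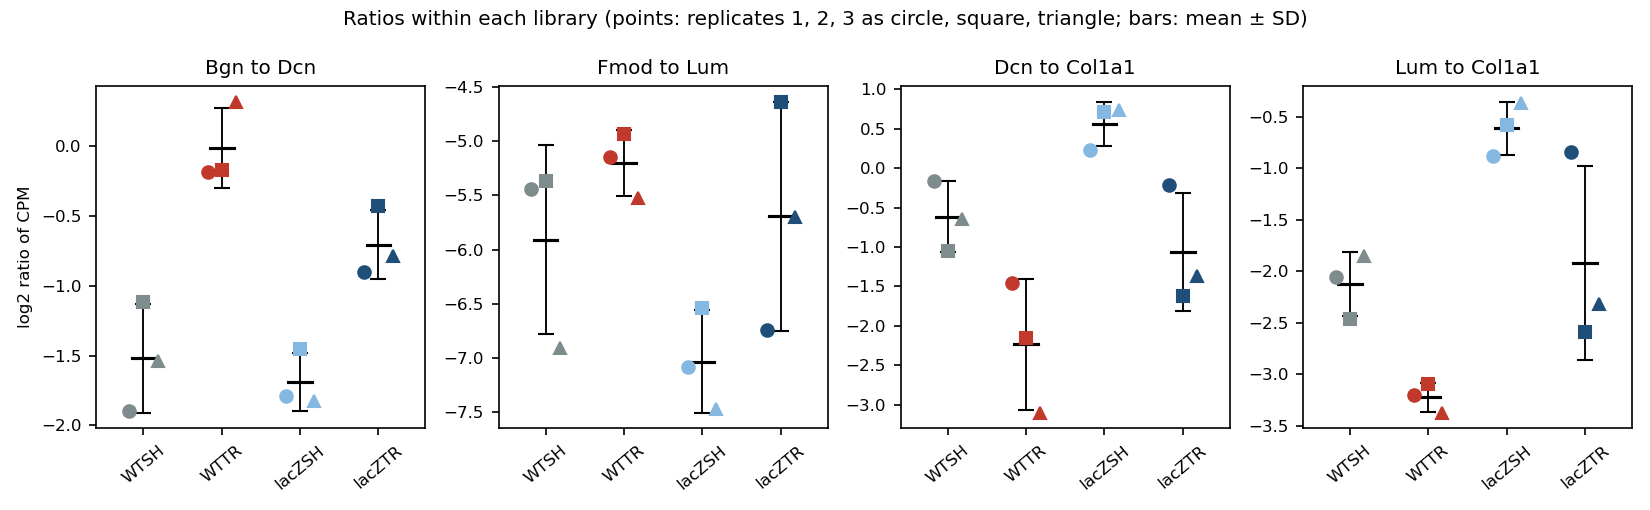
Log2 ratios of TMM-normalized CPM within each library for *Bgn* to *Dcn*, *Fmod* to *Lum*, *Dcn* to *Col1a1* and *Lum* to *Col1a1*, by group. Points are the 3 libraries of a group, and bars are the mean ± SD. For *Bgn* to *Dcn* all traction libraries are above all sham libraries, and the group means are -1.52, -0.0096, -1.69 and -0.70.

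Members fell into sets that went up and down together over the 12 libraries, as a description in which all points share the libraries and the 4 groups. Of the 45 pairs, 27 had a positive Pearson r of log2 CPM and 18 a negative one, from -0.55 to 0.94. *Ogn* and *Omd* had an r of 0.94, *Ogn* and *Aspn* 0.90, *Omd* and *Aspn* 0.89 and *Aspn* and *Kera* 0.88. Without WTTR replicate 1 these were 0.56, 0.61, 0.52 and 0.74. *Bgn* and *Fmod* (0.81) and *Prelp* and *Podn* (0.82) kept their values over the other 11 libraries, at 0.85 and 0.82. *Lum* went with *Kera*, its neighbour on chromosome 10 (0.80, and 0.77 over 11), whereas *Dcn* and *Bgn*, the closest relatives by class, had an r of -0.20. The r was also taken within groups, as deviations from the group means over all 12 libraries, WTTR replicate 1 included. It was 0.92 for *Ogn* and *Omd*, and it was not computed within groups without that library, on which their r over the libraries depended. It was 0.74 for *Prelp* and *Podn*, 0.58 for *Bgn* and *Fmod* and 0.32 for *Dcn* and *Bgn*, the last with the other sign. *Bgn* and *Podn* went from 0.63 to 0.16.

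**Figure D4:**
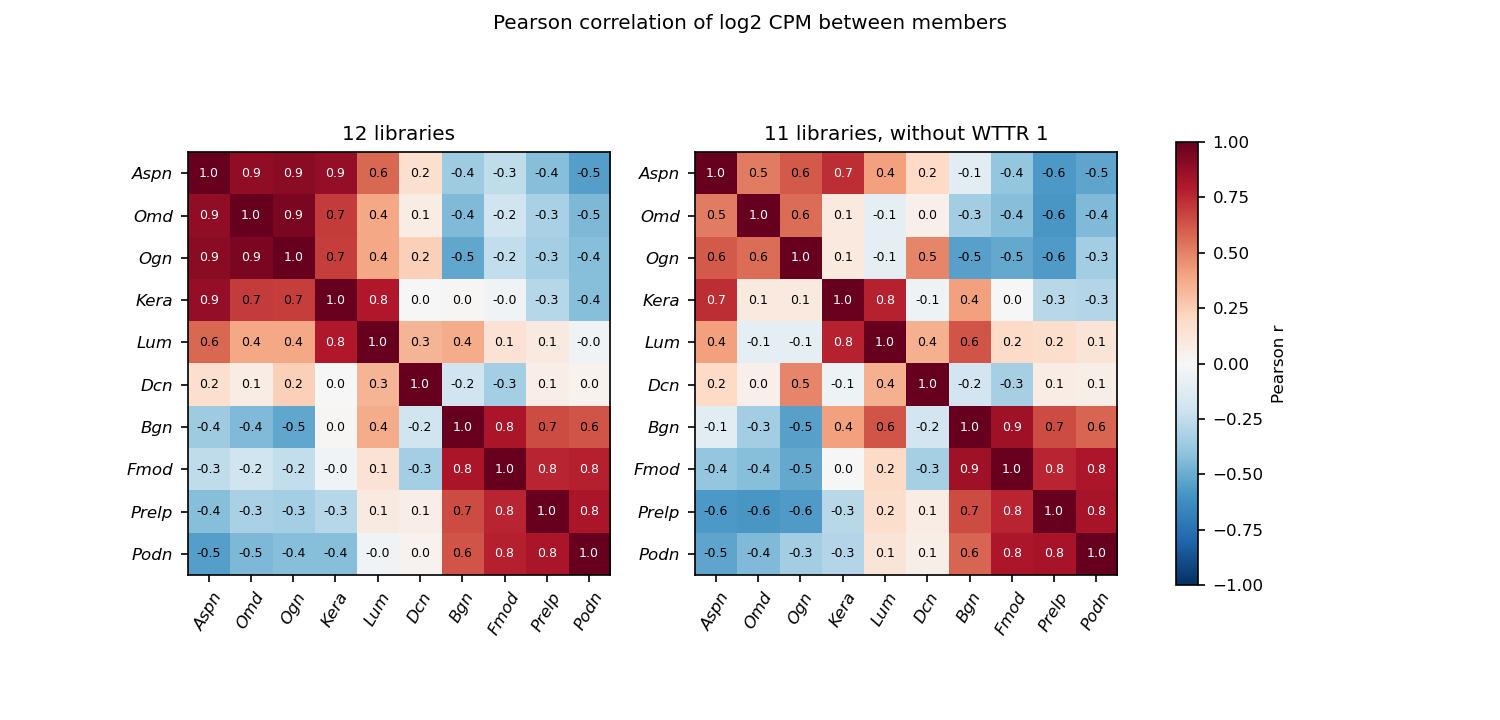
Pearson r of log2 CPM for each pair of proteoglycan genes, over 12 libraries at the left and over 11 without WTTR replicate 1 at the right (colour scale from -1 to 1). The block of *Aspn*, *Omd*, *Ogn* and *Kera* is paler at the right, where *Ogn* and *Omd* go from 0.94 to 0.56, and the block of *Bgn*, *Fmod*, *Prelp* and *Podn* is present in both.

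Among tested genes whose mean log2 CPM was 1 or more, those with a profile over the 12 libraries most like that of *Bgn* were *Slc39a7* (r = 0.99), *Notch4* (0.99) and *Rap2a* (0.98). For *Fmod* they were *Dnal4* (0.94), *Zfp740* (0.93) and *Zfp362* (0.93), and for *Dcn* *C1qtnf7* (0.85), *Hsd3b7* (0.82) and *Fos* (0.82). Those of *Ogn* were *Skint9* (0.96), *Rbbp9* (0.96) and *Gpr34* (0.95), which fell to 0.71, 0.87 and 0.72 without WTTR replicate 1. No member was among these genes.

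Of 8 other genes of the leucine-rich repeat family, *Tsku* was higher and *Ecm2* lower with traction in Tem1WT/WT mice, beside 5.61% and 3.54% of all genes. *Tsku*, whose product tsukushi is a secreted class IV member that binds growth factors and Wnt receptors, had a mean of 21.0 CPM in WTSH (18.8 to 22.2) and 45.8 CPM in WTTR (40.03 to 55.9). It was at 23.4 CPM in lacZSH and 19.5 CPM in lacZTR. The log2 fold change with traction was 1.13 (SE 0.17, adjusted p = 0.0213) in Tem1WT/WT and -0.26 (adjusted p = 0.674) in Tem1lacZ/lacZ mice, and it was the 1 family gene called between the genotypes under traction (-1.23, SE 0.17, adjusted p = 0.0257). That call between the genotypes, in a comparison that called 0.106% of all genes, was kept in 12 of 21 alternatives. The interaction of *Tsku* was -1.39 (SE 0.24, interval -1.91 to -0.87, unadjusted p = 1.06e-04, edgeR). Its adjusted p was 0.548, in a comparison that called 0% of all genes and held 8.91% at an unadjusted p under 0.05. Over 20 alternatives for the interaction, 0 to 1 of the 8 family genes were called. *Ecm2*, the gene before *Aspn* on chromosome 13, fell from 128 to 51.1 CPM (log2 fold change -1.32, SE 0.35, adjusted p = 0.044), and WTTR replicate 1 was the lowest of the 12 libraries at 21.4 CPM. Without that library the change was -0.97 (adjusted p = 0.0484) for *Ecm2* and 1.17 (adjusted p = 0.0344) for *Tsku*. Over 21 alternatives *Ecm2* was called in 9 and *Tsku* in 18. In Tem1lacZ/lacZ mice the log2 fold change of *Ecm2* was -0.18 (adjusted p = 0.901), from 102 CPM in lacZSH to 90.1 CPM in lacZTR. Averaged over both genotypes *Podnl1*, the closest relative of *Podn*, rose by 1.75 (SE 0.47, adjusted p = 0.045) from means of 2.01 CPM in WTSH and 1.93 in lacZSH. *Tsku* rose by 0.43 (adjusted p = 0.0458) in this average, which called 6.5% of all genes as higher. The calls of *Podnl1* and *Tsku* were kept in 7 and 8 of 20 alternatives. *Chad*, *Chadl*, *Nyx*, *Optc* and *Epyc* stayed under 3 CPM in every library.

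The enzymes that build chondroitin and dermatan sulfate chains, such as those of decorin and biglycan, formed a list of 22 genes. With traction in Tem1WT/WT mice 9 of 22 rose and 0 fell, beside 5.61% and 3.54% of all genes, and the list had a median log2 fold change of 0.81. These were *Chst11*, *Chsy1*, *Xylt1*, *Chpf*, *Chpf2*, *Csgalnact1*, *Chst12*, *Chst15* and *B4galt7*. *Xylt1* adds the first xylose to the core protein, *B4galt7* extends the linker, *Chsy1*, *Chpf* and *Chpf2* polymerize the chain and *Chst11* sulfates it. *Chst11* rose most, from 16.5 CPM (11.2 to 20.1) in WTSH to 80.5 CPM (48.8 to 140.5) in WTTR, a log2 fold change of 2.28 (SE 0.40, adjusted p = 0.0252). *Chsy1* rose by 1.76 (SE 0.32) and *Xylt1* by 1.77 (SE 0.40) on the log2 scale. *Dse*, the epimerase that turns chondroitin into dermatan sulfate, was at 0.46 (SE 0.20, adjusted p = 0.151), and the lowest was *Chst3* at -0.86 (adjusted p = 0.131).

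The call count of this list moved with the libraries fitted. Without WTTR replicate 1 it was 4 of 22, where 360 of 19388 genes were called in all, while the median was 0.79 and 21 of 22 were above 0. The count was 0 without WTSH replicate 1, without WTSH replicate 2 and with only the 6 Tem1WT/WT libraries, settings that called 0 of all genes. It was 12 with DESeq2's Wald test, which called 4047 of 18853 genes. The median stayed between 0.64 and 0.94 in all 21 alternatives. In Tem1lacZ/lacZ mice edgeR called 0 of 22 (5 at an unadjusted p under 0.05) and limma-voom 2, with a median of 0.35 and 18 of 22 above 0, and in lacZTR against WTTR edgeR called 0 of 22, with a median of -0.57 and 21 of 22 below 0. There DESeq2's Wald test called 10 as lower, beside 2334 of 18853 genes called in all, 869 of them higher. Without WTTR replicate 2 edgeR called 7 as lower, beside 1421 of 19400 genes called in all, 683 of them higher. Averaged over both genotypes 11 of 22 rose, the 9 above with *Chst14* and *Chst7*, and 0 fell, beside 6.5% of all genes called as higher. All genes had medians between -0.021 and 0.014 in these comparisons. The enzymes are also used for chains on other proteoglycans, and endothelial markers moved alongside, from 269 to 411 CPM in WTSH to 751 to 825 CPM in WTTR summed over 5 genes, of which 3 were called. Their part in the result was not tested.

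**Figure D5:**
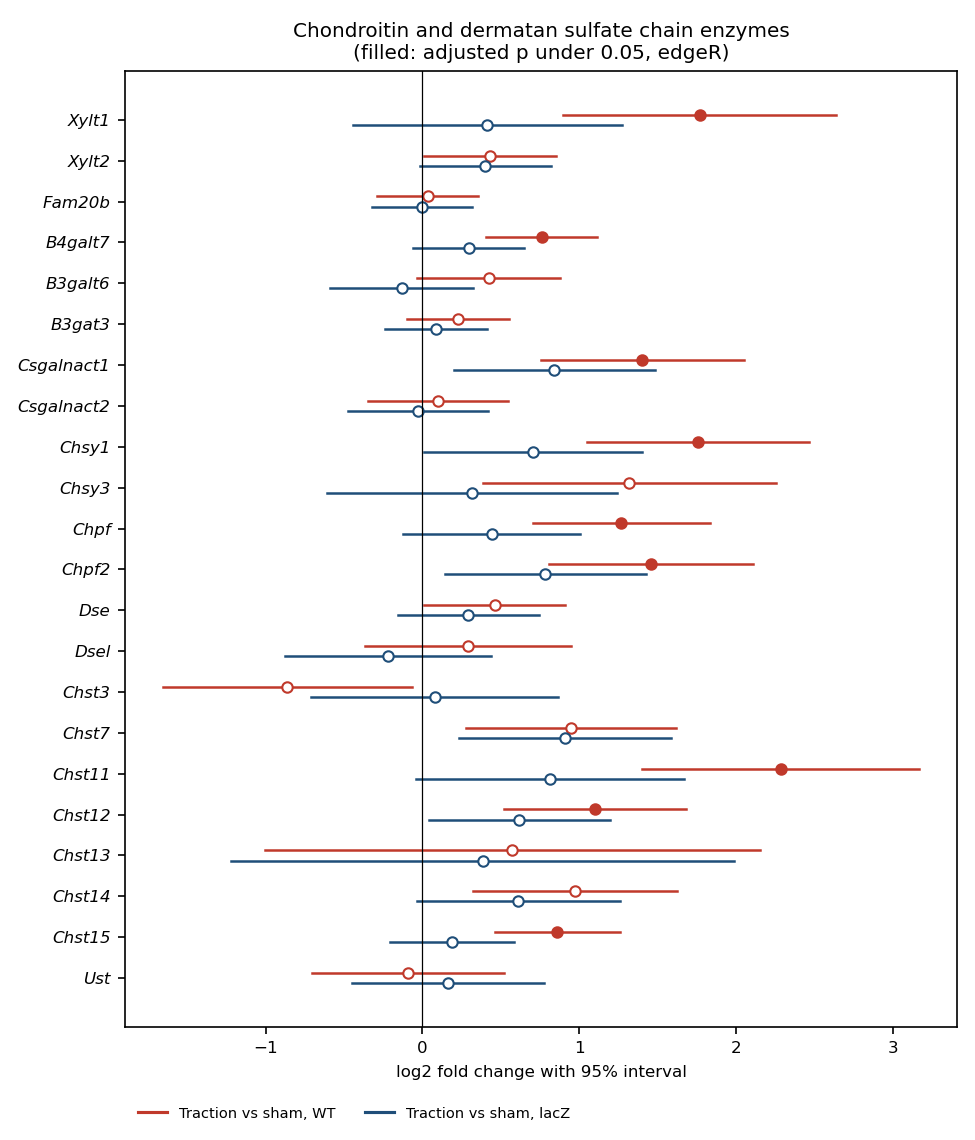
Log2 fold change with traction (horizontal axis, 95% interval) of the 22 chondroitin and dermatan sulfate chain enzymes in Tem1WT/WT and in Tem1lacZ/lacZ mice. Filled points have an adjusted p under 0.05 in edgeR: 9 in Tem1WT/WT mice, *Chst11* highest at 2.28, and 0 in Tem1lacZ/lacZ mice.

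Among 5 tested keratan sulfate enzymes (of 6 listed) *Chst2*, a sulfotransferase, rose by 1.75 (SE 0.35, adjusted p = 0.029) with traction in Tem1WT/WT mice, and the lowest was *Chst5* at -0.63 (adjusted p = 0.676). In this comparison 5.61% of all genes were called as higher. *Chst2* was at 1.88 (adjusted p = 0.0441) without WTTR replicate 1 and was called in 16 of 21 alternatives.

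Proteases that cut or mature these proteins, with their enhancers, were a list of 12, of which 11 were tested. With traction in Tem1WT/WT mice 6 of these rose and 1 fell, beside 5.61% and 3.54% of all genes, and the median log2 fold change was 1.33. *Bmp1*, which removes the propeptide of biglycan and of collagen, rose by 1.64 (SE 0.28, adjusted p = 0.0252), from 179 to 558 CPM. *Mmp14* rose by 1.33, *Mmp2* by 1.12, *Adamts4*, an aggrecanase, by 2.70 and *Mmp13* by 5.19 on the log2 scale. *Pcolce*, the enhancer of Bmp1 on procollagen, rose by 1.04 (adjusted p = 0.0497) and its relative *Pcolce2* fell by 2.46 (adjusted p = 0.03). Over 21 alternatives *Pcolce* was called in 6 and *Mmp2* in 10. *Bmp1* and *Adamts4* were called in 18, *Mmp14* in 17, *Mmp13* in 16 and *Pcolce2* in 15. Collagenase *Mmp13* reached 1929 CPM in a WTTR library and 138 CPM in another, against 11.2 to 35.2 CPM in WTSH. Without WTTR replicate 1 the counts were 5 higher and 0 lower, of 12, with *Mmp13* at 2.83 (adjusted p = 0.0433). Averaged over both genotypes 6 rose, *Tll1* (0.67, adjusted p = 0.0383) in place of *Mmp2*, and *Pcolce2* fell, beside 6.5% of all genes called as higher. In Tem1lacZ/lacZ mice edgeR called 0 of 11 and 0% of all genes, and the list had a median of 0.42 with 9 of 11 above 0. *Mmp13* had means of 26.8 CPM in lacZSH and 32.5 CPM in lacZTR, against 20.3 CPM in WTSH and 741 CPM in WTTR.

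Receptors and growth factors that bind decorin or biglycan gave 4 rises of 13 tested in Tem1WT/WT mice, where 5.61% of all genes rose. The Toll-like receptor gene *Tlr2* rose by 1.99, its co-receptor *Cd14* by 4.04, the endocytic receptor *Lrp1* by 1.45 and *Tgfb1* by 1.68 on the log2 scale, with adjusted p between 0.0334 and 0.0468, and the lowest was *Egfr* at -0.12. *Cd14* and *Tlr2* are also myeloid genes, and 4 of 5 tested neutrophil markers rose in the same comparison. The count was 1 of 13 without WTTR replicate 1, none of these 4 genes, and *Cd14* was at 1.69 (adjusted p = 0.0523) and *Tlr2* at 0.87 (adjusted p = 0.0546). Over 21 alternatives the rises numbered 0 to 7 and were 0 in 5, those without WTSH replicate 1, 2 or 3, without lacZSH replicate 3 and with only the 6 Tem1WT/WT libraries. In these 21 alternatives *Tgfb1* was called in 15, *Cd14* in 12, *Tlr2* in 8 and *Lrp1* in 7. The average of both genotypes called 5, *Lrp1*, *Tgfb1*, *Tgfb3*, *Cd14* and *Kdr*, all higher, beside 6.5% of all genes. In Tem1lacZ/lacZ mice edgeR called 0 of 13, with a median of 0.21 and 9 of 13 above 0.

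Of 15 genes for collagens and other fibril partners, 3 rose with traction in Tem1WT/WT mice, *Col12a1* by 2.91 (SE 0.47, adjusted p = 0.0242), *Col5a1* by 1.90 and *Col5a2* by 1.30, beside 5.61% of all genes. The count was 2 without WTTR replicate 1, and over 21 alternatives it ran from 0 to 10. For this list and the protease list it was 0 without WTSH replicate 1, without WTSH replicate 2 and with only the 6 Tem1WT/WT libraries. Over the 21 alternatives *Col12a1* was called in 18, *Col5a1* in 9 and *Col5a2* in 6. The list of collagens and partners had a median log2 fold change of 1.30, above the 0.38 of the proteoglycans, and its lowest gene was *Tnxb* at -0.85. Averaged over both genotypes *Col1a1*, *Col1a2* and *Col6a2* were added, 6 of 15 in all, beside 6.5% of all genes called as higher. In Tem1lacZ/lacZ mice edgeR called 0 of 15, with a median of 0.69 and 13 of 15 above 0. *Col1a2* and *Dpt* are in the fibroblast marker list too. Of its 8 genes, 2 were called as higher in Tem1WT/WT mice, *Fbln1* and *Pdgfra*, and 0 as lower. The log2 fold change was negative for 3 of the 8, lowest for *Clec3b* at -1.26. Averaged over both genotypes 3 were called as higher and 1, *Pi16*, as lower. In lacZTR against WTTR edgeR called 0 genes of the chain enzyme, protease, receptor and collagen lists, and at an unadjusted p under 0.05 they held 12 of 22, 9 of 11, 10 of 13 and 9 of 15 genes, against 26.1% of all genes. DESeq2's Wald test called 10, 5, 7 and 4 of them, all lower in lacZTR. It called 2334 of all 18853 genes in this comparison, 869 of them as higher.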

How the data were processed

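Tem1WT/WT and Tem1lacZ/lacZ scars with sham or traction were measured, with 3 libraries per group as the sample labels give them. Poly(A) RNA libraries were prepared with a stranded kit and sequenced as paired 150-bp reads. The authors trimmed reads (fastp 0.20.0), aligned them to GRCm38 (HISAT2 2.1.0) and counted them on genes (featureCounts 2.0.0), and they deposited whole-number counts per gene and library, without normalization (versions from the submitters' processing notes). The strand setting and the handling of multiply aligned reads are not given in the sources used here.

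The counts (41536788 to 64644293 per library) were analysed in R 4.3.3 with edgeR 4.0.16 (filterByExpr, TMM, robust quasi-likelihood, 1 model of 4 groups with 8 residual degrees of freedom, a biological coefficient of variation of 34.2%) in 7 two-sided contrasts, adjusted over 18853 genes. limma 3.58.1 and DESeq2 1.42.0 gave alternatives, and figures used Python 3.11.15 with matplotlib 3.10.9. The scripts were tested on simulated counts. Levels per kb used the principal transcript of GENCODE vM21, which gave a length for 90.1% of the genes tested. The 4 ratios were tested by exact permutation. Log2 CPM used a prior count of 2. Intervals are at the 95% level.

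The members and the gene lists were chosen with earlier results of these data known. All members are named. Of the other lists, genes past an adjusted p of 0.05 in any contrast and the highest and lowest gene for traction in Tem1WT/WT mice are named, with *Cd248*, the 3 genes most like a member and, after their values were seen, *Dse* and the genes of very low level. p-values measure the spread between 3 mice per group. The alternatives were other filters (at least 1 count in any library, at least 10 counts in every library), size factors of DESeq2, upper quartile normalization, DESeq2's Wald test, limma-voom (library weights), a fit without the robust option, a block for the replicate number, a fit of the compared libraries alone, leaving out each library in turn and, added after the data were seen, merged exon lengths and the same alternatives for the other lists and their called genes. Other assays of the study were not analysed here.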

Additional observations from a re-analysis of the deposited data

How the results depend on the processing

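Members called with traction in Tem1WT/WT mice were 2 with DESeq2's Wald test (*Bgn* and *Fmod*), beside 4047 of 18853 genes. They were 0 with only the libraries compared, which called 0 of all 17762 genes. They were 0 to 1 when each library was left out, beside 0 to 2861 of all genes. For the average of both genotypes they were 0 to 2 when each library was left out, beside 0 to 3422 of all genes. limma-voom called 2 members (*Bgn* and *Fmod*) with traction in Tem1lacZ/lacZ mice, beside 377 of 18853 genes. DESeq2 called 1 (*Bgn*) for lacZTR against WTTR, beside 2334 of 18853 genes. Without lacZTR replicate 1 the mean traction effects on the log2 ratios had adjusted p of 0.0333 for *Bgn* to *Dcn*, *Lum* to *Col1a1* and *Dcn* to *Col1a1* and 0.075 for *Fmod* to *Lum*. Over the libraries left out they ranged from 0.76 to 1.29 for *Fmod* to *Lum*, from 1.15 to 1.35 for *Bgn* to *Dcn*, from -1.47 to -1.04 for *Lum* to *Col1a1* and from -1.83 to -1.41 for *Dcn* to *Col1a1*.

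Signs that turned belonged to uncalled values. With traction in Tem1lacZ/lacZ mice, *Lum* was at 0.012 with all genes of at least 1 count and 0.015 with the replicate block, and *Ogn* at 0.073 and *Omd* at 0.092 with limma-voom. Upper quartile normalization gave 0.028 for *Bgn* in lacZSH against WTSH, and 0.057 for *Dcn* and 0.065 for *Lum* in lacZTR against WTTR, where the block gave 0.0299 for *Lum*. limma-voom gave -0.057 for the interaction of *Prelp*. When each library was left out, the log2 fold changes that turned ranged as follows. With traction in Tem1WT/WT mice they were -0.53 to 0.86 for *Kera* and -0.23 to 0.053 for *Dcn*. With traction in Tem1lacZ/lacZ mice they were -0.19 to 0.13 for *Lum*, -0.45 to 0.15 for *Ogn*, -0.20 to 0.11 for *Aspn* and -0.38 to 0.23 for *Omd*. For lacZSH against WTSH they were -0.77 to 0.043 for *Podn*, -0.15 to 0.10 for *Bgn* and -0.046 to 0.48 for *Ogn*, with -0.36 to 0.029 for the ratio of *Bgn* to *Dcn*. For lacZTR against WTTR they were -0.32 to 0.36 for *Lum*, -0.11 to 0.039 for *Dcn*, -0.93 to 0.12 for *Fmod* and -0.62 to 0.099 for *Podn*, with -1.02 to 0.036 for the ratio of *Fmod* to *Lum*. For the interaction they were -0.30 to 0.58 for *Prelp*, -0.26 to 0.66 for *Podn*, -0.48 to 0.94 for *Kera*, -0.078 to 1.34 for *Omd* and -0.28 to 0.80 for *Fmod*. For traction averaged over both genotypes *Kera* ranged from -0.059 to 0.63, and for the genotypes averaged over both treatments *Dcn* ranged from -0.0298 to 0.12. The causes were not tested.

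Genes called with traction in Tem1WT/WT mice numbered 1725, of which 1057 were higher, and 735 (614 higher) with limma-voom, 4047 with DESeq2, 1011 with all genes of at least 1 count and 0 to 2861 when each library was left out. Upper quartile normalization moved the median of all genes from -0.0094 to -0.12 and called 1673 genes, 734 higher. For the average of both genotypes 1835 genes were called, 3850 with DESeq2 and 3850 with limma-voom, which also called *Podn*. Same-numbered libraries came from different mice, and their deviations had r from -0.32 to 0.25, over 0.1 in 8 of 18 pairs and not in all. As a hint from the data and not the design, 8 of 12 libraries correlated best with a library of their own number. The block was therefore an alternative. It called 1467 genes and 1 member, *Bgn*, with traction in Tem1WT/WT mice and 2 members for the average, and changed no other member's call. The lowest member levels were those of *Kera* and *Omd* in WTTR replicate 1, at 1.17 and 1.52 CPM.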
